A study of Mus musculus with 2 samples.

Results

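Xenobiotic enzymes were examined in squamous organoids grown from the mouse forestomach, the squamous-lined first chamber of the rodent stomach. They were taken as the genes of the cytochrome P450 families Cyp1 to Cyp4, the glutathione S-transferases (GSTs) of classes alpha, kappa, mu, omega, pi and theta, the UDP-glucuronosyltransferases Ugt1 and Ugt2, the sulfotransferases (SULTs), the aldo-keto reductases Akr1, and Ahr, Ahrr, Por and Ephx1. Members were chosen by gene symbol alone, among probe sets carrying exactly 1 symbol, which gave 148 of the 29456 genes on the array. RefSeq annotated 139 of the 148 as protein coding and 7 as pseudogenes. Of the other 2, Cyp4x1os is a long non-coding RNA of the opposite strand and Cyp2c44 was not matched. A further 12 probe sets carried several symbols that included at least 1 member, and they are described apart.

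The study compared squamous cells with and without SOX2, a transcription factor needed for the foregut to form. The SOX2 KO organoids came from mice carrying Krt5CreER/+, Sox2Δ/Δ and ROSA26tdTomato/+. In this model the Krt5 promoter drives a tamoxifen-inducible Cre in squamous cells, and tdTomato marks recombined cells. The comparison culture was labelled WT control, from wild-type mice, and in the study's mouse work controls were littermates that lacked the Cre driver. Tamoxifen was injected into the mice to induce the deletion. The ages of the mice were not given in the sources used here. Each group had 1 library on 1 Affymetrix Mouse Gene 2.0 ST array, so there was no replicate check, no p-value is given, and genotype cannot be told apart from mouse, culture or array. Both cultures were grown in Matrigel with keratinocyte medium that contained bovine pituitary extract, EGF, calcium chloride and the kinase inhibitor Y-27632.

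Xenobiotic metabolism is usually described in phases. Phase I enzymes, mainly P450s fed with electrons by POR, add or expose a reactive group on a foreign or endogenous lipophilic compound. Phase II enzymes then attach glutathione (GSTs), glucuronic acid (UGTs) or sulfate (SULTs), which makes the product easier to export. AHR, a ligand-activated transcription factor, induces Cyp1a1, Cyp1a2 and Cyp1b1 and is restrained by AHRR, while NRF2 (Nfe2l2) induces many GST genes. Several members also act on the body's own lipids, among them fatty acid hydroxylases of the Cyp4 family and the cholesterol sulfotransferase Sult2b1.

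Values are log2 array signals as deposited, and differences are SOX2 KO minus WT control. A gene counted as above the floor if its signal was 3.3 or more, the median over all genes, on 1 or both arrays. The signal of 3.84, under which 95% of the values of 1127 olfactory receptor genes fell, stood in for background and is called the receptor level. For a gene whose weaker signal fell under this level, the level itself was used for the fold, written as at least N-fold. The signals of different probe sets were not read as relative amounts of RNA. They were set against the common floor and receptor level, summed over marker lists, and used in picking named genes. Sizes of differences between genes are those of the array signal. Sox2 itself read 5.74 in the control library and 2.53 in the knockout. The squamous markers Krt5 (8.86 and 8.71) and Trp63 (6.44 and 6.31) were well above the receptor level in both. Of 10 basal and suprabasal squamous markers 6 were higher and 4 lower without SOX2. Their signals, summed before the log2 was taken, gave 11.49 and 11.07, a sum in which Krt13, the brightest, weighs most. Past 2-fold, Krt15 was higher (7.5 and 8.73) and Krt13 lower (10.33 and 8.97). Krt4 read 8.46 and 7.49.

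Most xenobiotic enzyme genes were not measurably expressed in either culture. Of the 148 members, 104 (70.3%) lay under the floor on both arrays, with signals from 1.78 to 3.28, beside 45.7% of all genes. A lower level cannot be seen at those signals. Of the 44 above the floor, 27 exceeded the receptor level on at least 1 array and 21 on both. The 44 comprised 22 P450s, 11 GSTs, 4 aldo-keto reductases, 2 UGTs, 2 SULTs, and Ahr, Por and Ephx1. Among them 1 member, the P450 Cyp4f39, had a signal lower by 2-fold or more without SOX2, and 0 had one higher by that much. The same 2-fold difference was passed downward by 0.795% and upward by 2.01% of the 15983 genes with signal above the floor, 2.81% in either direction. Above the receptor level the 2 shares were 1.14% and 2.83%, where 1 and 0 of the 27 members passed. At 1.5-fold, 5 members were lower and 4 higher, where the backgrounds were 4.43% and 6.45%. The member median was -0.04 beside 0.00 over all genes above the floor, and 0.01 over the 40 protein-coding members, of which 20 were higher and 20 lower. Above the receptor level 18 of 27 members were lower, with a median of -0.16. Above it on both arrays 15 of 21 were lower (71.4%), also with a median of -0.16, beside 47.5% and 0.00 of all such genes. The plot of member signals by library shows the P450s crowded near the receptor level and most GSTs clear of it.

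**Figure D1:**
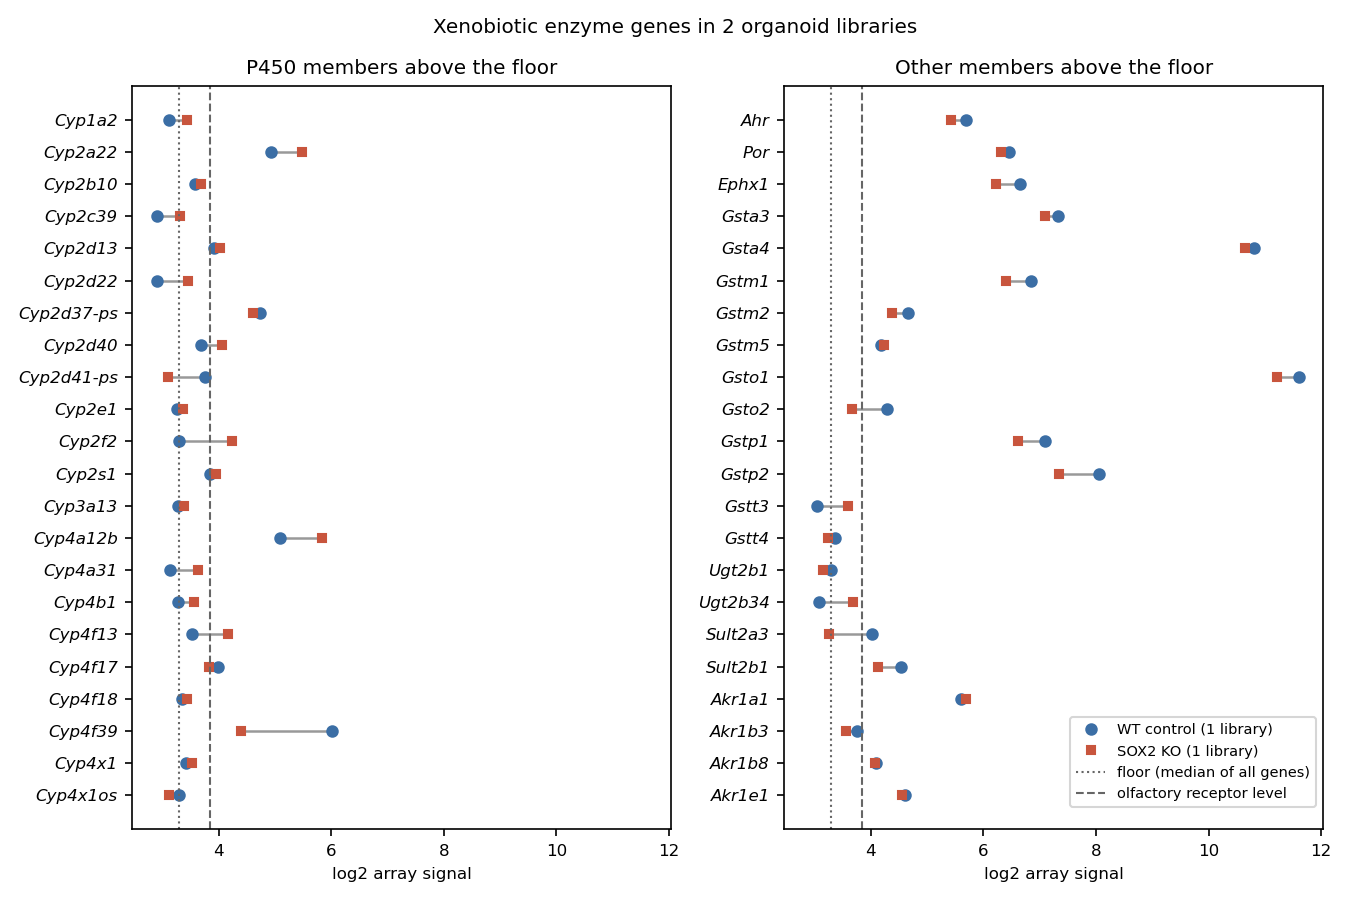
Log2 array signal (x axis) of the 44 members above the floor in the WT control library (circles) and the SOX2 KO library (squares), 1 library each, with the floor at 3.3 (dotted) and the receptor level at 3.84 (dashed). P450s are in the left panel and the other families in the right; Cyp4f39 has the widest gap, from 6.01 to 4.39.

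The promoter windows of genes with larger differences are given first, to show the letters upstream of them. They hold little transcribed sequence and do not bear on what the probes bind. RefSeq windows (GRCm38.p6, from 250 bases before to 50 after a start site) were matched for 120 of the 148 members and for 33 of the 44 above the floor. Cyp4f39 is shown as the 1 member past 2-fold. Gsta1 and Gm3776 are shown because 2 probe sets carry both names, and Gstp1 and Gstp2 as neighbouring pi-class genes that were both lower. Capitals mark matches, on either strand, to the AHR core GCGTG, the antioxidant response element core as TGACNNNGC or TGAGNNNGC, the AP-1 site TGAGTCA and the SOX cores CATTGT and CTTTGT.
Cyp4f39 (chr17:32452473-32452772, plus strand): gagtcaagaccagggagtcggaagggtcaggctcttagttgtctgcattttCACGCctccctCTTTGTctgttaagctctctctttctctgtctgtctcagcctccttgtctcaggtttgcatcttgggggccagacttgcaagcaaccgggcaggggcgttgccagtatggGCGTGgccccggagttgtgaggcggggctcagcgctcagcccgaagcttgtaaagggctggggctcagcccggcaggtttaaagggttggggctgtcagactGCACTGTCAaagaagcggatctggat
Gsta1 (chr9:78230419-78230718, plus strand): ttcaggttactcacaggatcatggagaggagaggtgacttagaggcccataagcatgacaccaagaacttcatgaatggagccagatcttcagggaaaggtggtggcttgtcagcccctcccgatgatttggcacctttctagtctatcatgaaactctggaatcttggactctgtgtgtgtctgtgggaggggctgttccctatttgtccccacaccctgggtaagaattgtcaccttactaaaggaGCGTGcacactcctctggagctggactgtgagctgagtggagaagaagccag
Gm3776 (chr9:78256879-78257178, plus strand): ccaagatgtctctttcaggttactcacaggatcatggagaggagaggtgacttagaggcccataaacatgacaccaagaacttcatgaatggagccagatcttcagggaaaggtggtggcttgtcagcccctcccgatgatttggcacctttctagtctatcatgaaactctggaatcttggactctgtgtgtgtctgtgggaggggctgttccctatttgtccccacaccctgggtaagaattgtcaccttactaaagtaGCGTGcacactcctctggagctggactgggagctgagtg
Gstp1 (chr19:4037863-4038162, minus strand): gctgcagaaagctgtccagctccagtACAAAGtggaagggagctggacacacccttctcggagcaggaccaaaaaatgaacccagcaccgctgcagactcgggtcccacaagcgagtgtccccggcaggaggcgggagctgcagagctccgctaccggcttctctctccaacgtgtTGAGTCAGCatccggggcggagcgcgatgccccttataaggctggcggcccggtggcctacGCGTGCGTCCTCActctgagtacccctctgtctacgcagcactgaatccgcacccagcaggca
Gstp2 (chr19:4042172-4042471, minus strand): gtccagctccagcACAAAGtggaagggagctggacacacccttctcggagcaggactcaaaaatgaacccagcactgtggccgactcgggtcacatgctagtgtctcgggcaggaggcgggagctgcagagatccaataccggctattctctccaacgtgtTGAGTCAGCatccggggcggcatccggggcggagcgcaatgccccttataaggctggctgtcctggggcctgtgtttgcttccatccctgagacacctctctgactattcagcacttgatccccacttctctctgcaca

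The windows of Gsta1 and Gm3776 were identical at 284 of 287 paired bases (99.0%). Those of Gstp1 and Gstp2 were identical at 243 of 282 (86.2%). Positions below count from the start site of each window, with negative numbers before it. The Cyp4f39 window held the AHR core at -199 and at -78, a SOX core (CTTTGT) at -188 and, read on the opposite strand, an antioxidant response element core from 25 to 33. Gsta1 and Gm3776 each held 1 AHR core, at -2 and at 12. Gstp1 and Gstp2 shared TGAGTCAGC, from -74 and from -89, in which the AP-1 site TGAGTCA overlaps the antioxidant response element core. In Gstp1 an AHR core at -13 also overlaps by 1 base a second match of the latter, on the opposite strand. Both Gstp windows held a SOX core (CTTTGT, opposite strand).

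These letters are common. Over all 32851 windows, the AHR core occurred in 32.4%, TGACNNNGC in 12.4%, TGAGNNNGC in 17.6%, TGAGTCA in 5.2%, CATTGT in 12.6% and CTTTGT in 18.7%. Among the 13 windows of GST members above the floor the AHR core occurred in 4 (30.8%), TGACNNNGC in 2 (15.4%) and TGAGNNNGC in 4 (30.8%). TGAGTCA occurred in 3 of them (23.1%), CATTGT in 0 and CTTTGT in 2 (15.4%). Among the 15 windows of P450 members above the floor the same motifs occurred in 2, 2, 4, 1, 1 and 8. In the same order these shares are 13.3%, 13.3%, 26.7%, 6.7%, 6.7% and 53.3%. Some genes have more than 1 window, so windows are not independent, and a match is a description of the letters and not a site.

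The receptor AHR was above background, while its repressor and the Cyp1 genes were not. Ahr (chromosome 12, 35497979 to 35534989, mm10), the receptor, read 5.70 with SOX2 and 5.43 in the SOX2 KO library, with a difference of -0.27. Its repressor Ahrr lay under the floor at 2.74 and 2.77. Cyp1a1, the most inducible AHR target, lay under the floor at 2.64 and 2.86. Cyp1b1 did as well, at 3.03 and 3.27. Cyp1a2, which is best known from liver, read 3.11 and 3.44, above the floor in the SOX2 KO library but under the receptor level in both. The differences of the 3 Cyp1 genes (0.22, 0.33 and 0.24) therefore lie among signals that olfactory receptor genes also reach. For scale, the SD of the difference over the receptor genes was 0.26.

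Cyp4f39 was the P450 that differed most. It is the mouse counterpart of human CYP4F22, which hydroxylates the end of ultra-long-chain fatty acids for the acylceramides of the epidermal barrier. Its signal was 6.01 in WT control organoids and 4.39 in SOX2 KO organoids, 3.07-fold lower, with both values above the receptor level. Its difference of -1.62 ran from -1.70 to -1.61 over 3 scalings of the arrays. Its probe set covers chromosome 17 from 32452723 to 32493320 on the plus strand, nearly the whole annotated gene (32452697 to 32493320).

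Cyp4f39 lies in a cluster of 9 Cyp4f genes on chromosome 17, of which 3 passed the floor. Its neighbour Cyp4f17 read 3.99 and 3.83, a difference of -0.16 that reaches below the receptor level. Cyp4f13, near the other end of the cluster, read 3.52 in the WT control and 4.16 without SOX2 and was at least 1.24-fold higher. Cyp4f37 differed by 0.94 with both values under the floor (2.30 and 3.24), and the other 5 lay under the floor with differences from -0.27 to 0.51. Cyp4f18, which in mouse inactivates leukotriene B4, lies elsewhere (chromosome 8) and read 3.35 and 3.44.

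The remaining P450s above the floor were mostly higher in the SOX2 KO library, close to background. Of the 22 P450s above the floor 17 were higher and 5 lower (77.3% higher, beside 47.8% of all genes above the floor), with a median of 0.11. The 22 include 3 pseudogenes and Cyp4x1os, which make up 3 of the 5 that were lower, and of the 18 protein-coding P450s 16 were higher and 2 lower. Of these 22, 12 did not exceed the receptor level on either array, and 10 of the 12 were higher (83.3%, beside 44.1% of all genes in that range). Membership above the floor can itself come from the brighter library, so the count is also given without a floor, where 50 of 82 P450s were higher (61.0%, beside 47.4% of all genes), 31 lower and 1 equal. Above the receptor level on both arrays were 6 P450s, of which 4 were higher and 2 lower, and 2 of the 6 were pseudogenes.

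Cyp2f2, a P450 best known from the club cells of mouse airway, read 3.29 in the control library and 4.24 in the knockout, at least 1.32-fold higher, since the control signal was not above background. Cyp4a12b, a fatty acid hydroxylase of mouse liver and kidney, read 5.09 and 5.83, 1.67-fold higher. Cyp2a22 (chromosome 7) read 4.93 and 5.48, 1.46-fold higher. The last 2 were above the receptor level in both libraries. The close relative Cyp4a12a lay under the floor at 2.63 and 2.59. P450 paralogs are near-identical over long stretches, and whether the probes of Cyp4a12b and Cyp2a22 also catch relatives was not tested. Markers of liver and gut were mostly near background, and the source of the Cyp4a12b and Cyp2a22 signals was not tested. Of 7 hepatocyte and enterocyte markers 6 lay at or below the receptor level on both arrays, Alb at 2.73 and 2.58 among them, and Apoa1 read 4.06 and 4.18.

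Other P450s were mostly near background. The differences of those named in this paragraph ran from -0.67 (Cyp2d41-ps) to 0.55 (Cyp2d22). Cyp2s1, an extrahepatic P450 inducible through AHR, read 3.85 and 3.95. Cyp2e1, the ethanol-oxidizing P450, read 3.26 and 3.37, and Cyp2b10, the main target of the xenobiotic receptor CAR in mouse liver, 3.57 and 3.68. Cyp3a13, the 1 member of 8 Cyp3 genes above the floor, read 3.27 and 3.38, and Cyp4b1 3.27 and 3.56. Of the 15 Cyp2c genes on chromosome 19, 1 passed the floor (Cyp2c39, 2.90 and 3.32). Of 11 Cyp2d genes 5 did, 3 of them annotated as pseudogenes. The pseudogenes read 3.76 and 3.09 (Cyp2d41-ps), 4.73 and 4.60 (Cyp2d37-ps) and 3.92 and 4.02 (Cyp2d13), while Cyp2d40 read 3.68 and 4.06 and Cyp2d22 2.91 and 3.46.

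Por and Ephx1, which serve many substrates, were well above background. Por, the reductase that supplies microsomal P450s with electrons, read 6.46 with SOX2 and 6.31 in the SOX2 KO library. Its difference of -0.15 ran from -0.30 to -0.14 over the scalings. Ephx1, the microsomal epoxide hydrolase, read 6.66 and 6.22, a difference of -0.44 that ran from -0.59 to -0.43. Its probe set (chromosome 1, 180976155 to 181020904, minus strand) reaches beyond both ends of the annotated gene (180989556 to 181017569). Both genes were lower by less than 1.5-fold.

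**Figure D2:**
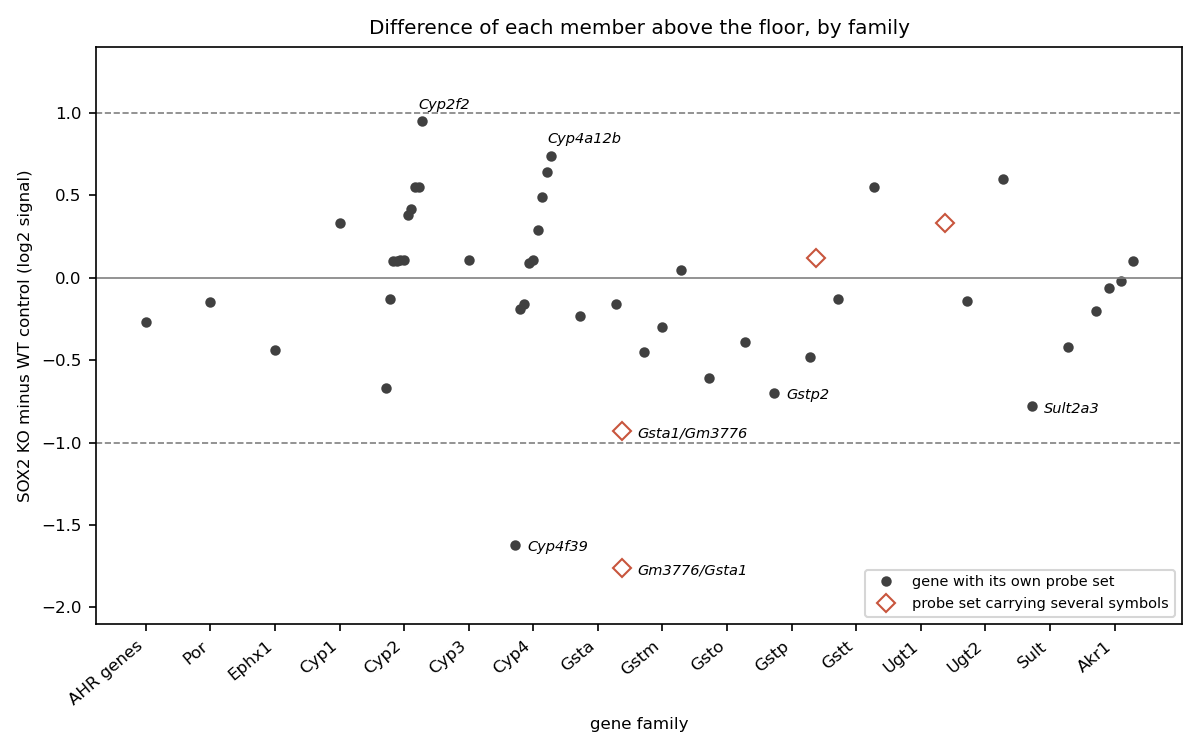
SOX2 KO minus WT control log2 signal (y axis) of each member above the floor, by gene family (x axis). Filled points are genes with a probe set of their own, open diamonds are probe sets that carry several symbols, and dashed lines mark 2-fold; Cyp4f39 (-1.62) and the Gm3776/Gsta1 probe set (-1.76) lie past the lower line.

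The GSTs were lower as a group. Of 20 GST genes 11 passed the floor, and of these 9 were lower and 2 higher in the SOX2 KO library (81.8% lower, beside 49.4% of all genes above the floor). Their median difference was -0.30, and it ran from -0.34 to -0.29 over the scalings. Above the receptor level on both arrays, 7 of 8 were lower and the median was -0.34. Of all genes that passed the same requirement 47.5% were lower, and their median was 0.00. None of these GSTs reached 2-fold. Without a floor, 14 of the 20 GST genes were lower (70.0%, beside 48.5% of all genes) and 6 higher, with a median of -0.16. With 1 library in each group these counts describe a pair of cultures.

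Among GSTs with their own probe set Gstp2 had the largest difference, -0.70. It read 8.05 in WT control organoids and 7.35 in SOX2 KO organoids, 1.62-fold lower. Gstp1, the main pi-class enzyme, read 7.09 and 6.61, 1.39-fold lower. The pair lies side by side on the minus strand of chromosome 19 (Gstp1 from 4035411 to 4037912, Gstp2 from 4040288 to 4042221). Because they are close copies, a probe of one can hybridize to RNA of the other, and their values may not be independent. Both are nevertheless counted separately in the GST counts and medians. Another probe set, annotated to Gm3934 and Gstp2 but placed on chromosome 1, read 5.10 and 5.22 and was level.

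In the omega class Gsto1, which reduces dehydroascorbate and mixed disulfides, read 11.6 and 11.21, 1.31-fold lower. Its neighbour Gsto2 (chromosome 19, 47865438 to 47886308) read 4.28 and 3.67 and was at least 1.35-fold lower. In the mu class Gstm1, an enzyme of broad substrate range, read 6.85 and 6.40, 1.37-fold lower, and Gstm2 4.67 and 4.37, 1.23-fold lower. Gstm5 was level at 4.18 and 4.23. These 3 belong to the mu cluster of 7 genes on chromosome 3, whose other 4 genes lay under the floor. The theta-class genes above the floor, Gstt3 (3.05 and 3.60) and Gstt4 (3.37 and 3.24), did not exceed the receptor level on either array. Gstk1 lay under the floor at 2.90 and 2.97.

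The alpha class differed between its members. Gsta4, which conjugates the lipid peroxidation product 4-hydroxynonenal, read 10.8 and 10.64. Its difference of -0.16 was -0.02 under 1 of the scalings. Gsta3 read 7.33 and 7.10, and Gsta2 lay under the floor at 2.40 and 2.23. Gsta1 has no probe set of its own. It shares 2 with Gm3776, a protein-coding gene annotated 14445 bases downstream of it on chromosome 9. The probe set over Gsta1 (78230656 to 78242684) read 8.20 in the WT control and 7.27 without SOX2, 1.90-fold lower. The probe set over Gm3776 (78257129 to 78269166) read 9.70 and 7.94, 3.39-fold lower. Both signals were far above the receptor level in both libraries, and over the scalings the differences ran from -1.0 to -0.92 and from -1.83 to -1.75. Which gene the RNA came from cannot be told apart.

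Among the 4 several-symbol probe sets with a member that passed the floor, the one over Gm3776 was thus at least 2-fold lower and 0 were at least 2-fold higher. Of all 1162 several-symbol probe sets above the floor, 0.602% were lower and 10.6% higher by that much. The remaining one of the 4 covers the Ugt1a locus on chromosome 1 (88055388 to 88220002). That locus makes several glucuronosyltransferases from alternative first exons joined to shared exons, and the probe set carries 8 symbols. It read 3.98 in the control library and 4.31 in the knockout, 1.26-fold higher. The other 8 several-symbol probe sets, of the Cyp2a, Cyp2c, Cyp3a, Cyp4a, Cyp4v, Ugt2a and Sult2a genes, lay under the floor.

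**Figure D3:**
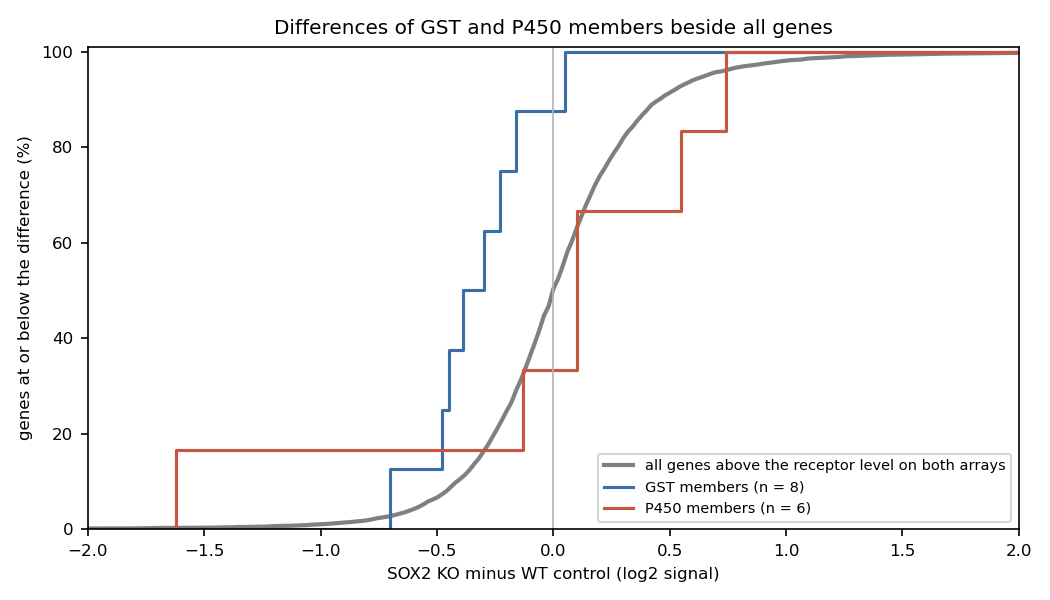
Share of genes (y axis, %) with a SOX2 KO minus WT control log2 difference at or below the value on the x axis, for genes above the receptor level on both arrays. From -0.70 upward the line of the 8 GSTs lies to the left of the line of all genes, with 7 of 8 below 0, and the 6 P450s, 2 of them pseudogenes, spread on both sides from -1.62 to 0.74.

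Glucuronidation and sulfation genes were few above the floor. Of 8 Ugt2 genes 2 passed it, Ugt2b34 (3.08 and 3.68) and Ugt2b1 (3.30 and 3.16), and neither exceeded the receptor level. Of 18 sulfotransferase genes 2 passed it and both were lower, beside 49.4% of all genes above the floor. Sult2a3 passed it in the control library alone, so it could only be lower. Without a floor the median over the 18 was 0.0. Sult2b1, which makes cholesterol sulfate in epidermis, read 4.54 with SOX2 and 4.12 in the SOX2 KO library, 1.34-fold lower. Sult2a3, of a subfamily that sulfates hydroxysteroids and bile acids, read 4.03 and 3.25 and was at least 1.14-fold lower. Its 6 relatives on chromosome 7 with their own probe sets lay under the floor, and their differences ran from -0.21 to 0.46.

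The 4 aldo-keto reductases above the floor had differences from -0.20 to 0.10. Akr1a1, the general aldehyde reductase, read 5.60 and 5.70, and its difference of 0.10 turned to -0.01 after quantile scaling. Akr1e1 read 4.61 and 4.55 and Akr1b8, an aldose reductase-like enzyme, 4.10 and 4.08. Akr1b3, the mouse aldose reductase, read 3.76 and 3.56, under the receptor level on both arrays. All 8 numbered Akr1c genes on chromosome 13, a subfamily of hydroxysteroid dehydrogenases, lay under the floor.

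Other genes of the pathway were taken from 7 lists of known pathway genes. These lists held 92 non-member genes above the floor, with a median of -0.05. Of these 1 was higher and 2 were lower by 2-fold or more. Of all genes above the floor 2.01% were higher and 0.795% lower by that much. The gene past 2-fold upward was Slco2a1, the prostaglandin transporter, at 4.83 in WT control organoids and 7.16 in SOX2 KO organoids, 5.03-fold higher. The 2 downward were Serpinb2, a serine protease inhibitor also induced through AHR (8.26 and 6.71, 2.93-fold lower), and Nfe2l2, which encodes NRF2 (8.43 and 7.43). The Nfe2l2 difference of -1.0 lies on the threshold and ran from -1.03 to -0.99 over the scalings.

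Among 11 sensors and their partners above the floor, 7 were lower and 4 higher, with a median of -0.11. The lower share was 63.6%, beside 49.4% of all genes above the floor. Arnt, the dimerization partner of AHR, read 4.49 in the WT control and 5.48 without SOX2, a difference of 0.99 that ran from 0.94 to 1.00 over the scalings. The Ahr difference, -0.27, had the opposite sign but was about the size of the SD over olfactory receptor genes (0.26). The signals of those genes lay mostly under the receptor level, whereas Ahr read above it (5.70 and 5.43), so the SD is a rough scale only. Keap1, which holds NRF2 in check, read 4.04 and 3.32, at least 1.15-fold lower. Hsp90ab1, a chaperone of unliganded AHR, read 7.68 and 7.55, and Nr1i3, the receptor CAR, 3.53 and 3.62.

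Targets of AHR outside the members were more often lower than higher. Of 8 above the floor 6 were lower and 2 higher, with a median of -0.41. The lower share was 75.0%, beside 49.4% of all genes above the floor. At 1.5-fold 4 were lower and 0 higher, beside 4.43% and 6.45% of all genes above the floor. At 2-fold 2 were lower, Serpinb2 and Nfe2l2, and 0 higher. Nqo1, a quinone reductase induced through both AHR and NRF2, read 5.02 and 4.29, 1.66-fold lower. Tiparp, a repressor induced by AHR, read 4.70 and 5.17, 1.39-fold higher, and Aldh3a1 was level at 5.80 and 5.72. Nfe2l2 and Tiparp also stand among the sensors and Nqo1 among the phase I enzymes, so the lists are not independent.

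**Figure D4:**
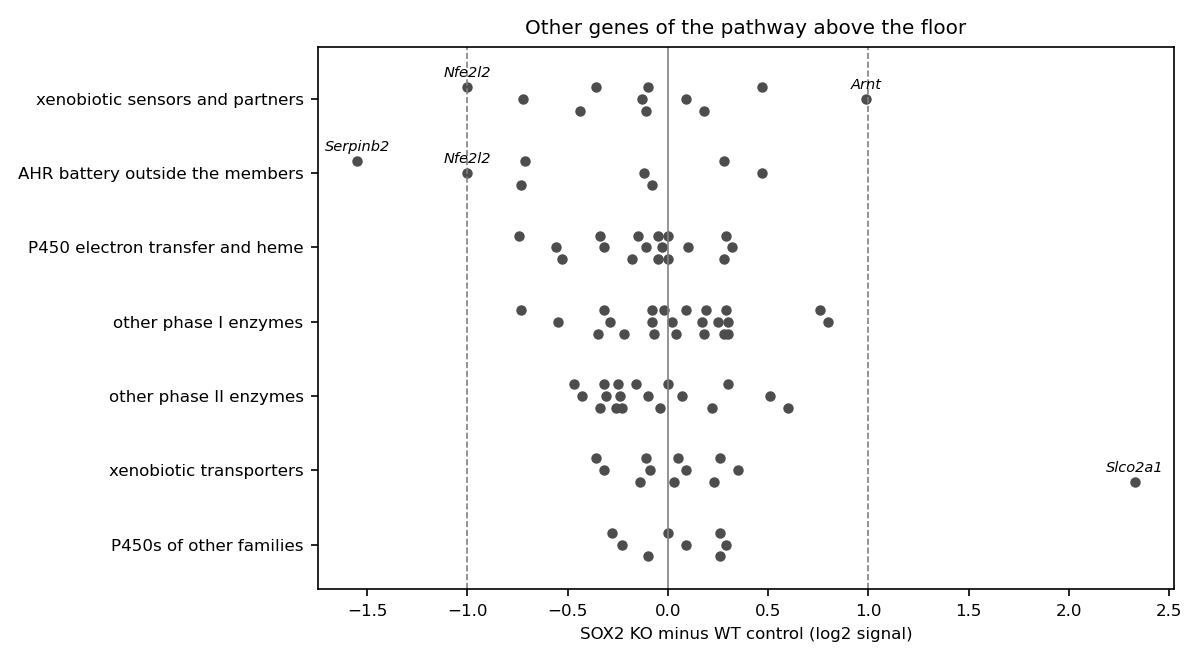
SOX2 KO minus WT control log2 signal (x axis) of the genes of 7 pathway lists above the floor (y axis, 1 row a list; Por stands among the electron transfer genes, and some genes stand on 2 lists). Dashed lines mark 2-fold; Slco2a1 (2.33) and Serpinb2 (-1.55) lie past them and Nfe2l2 (-1.0) on the line.

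Among genes of glutathione synthesis and of other conjugations more were lower than higher, by small amounts. Of 18 other phase II genes above the floor 12 were lower, 5 higher and 1 equal, with a median of -0.20 and 0 past 2-fold. The lower ones made up 66.7%, beside 49.4% of all genes above the floor. Gclm and Gclc, the subunits of the rate-limiting enzyme of glutathione synthesis, read 8.11 and 7.64 and 6.26 and 5.92. Gss, which completes glutathione, read 4.53 and 4.27. Higher were the arylamine acetyltransferase Nat2 (4.89 and 5.49, 1.52-fold) and the microsomal transferase Mgst2 (5.72 and 6.23, 1.42-fold).

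Of 17 genes of electron transfer and heme 11 were lower, 4 higher and 2 equal, with a median of -0.05 and 0 past 2-fold. The lower share was 64.7%, beside 49.4% of all genes above the floor. Cyb5r1 (4.94 and 4.20) and Hmox1, the inducible heme oxygenase (4.50 and 3.94), were the lowest of them. Of 23 other phase I genes 13 were higher and 10 lower, with a median of 0.04 and 0 past 2-fold. Cbr2, a carbonyl reductase, read 8.82 in the control library and 9.62 in the knockout, 1.74-fold higher, and Xdh, which oxidizes purines, 4.12 and 4.88, 1.69-fold higher. Of 12 transporter genes 7 were higher and 5 lower, with a median of 0.04. Among the export pumps Abcc1 read 6.26 and 6.15 and Abcc4 5.22 and 4.90. P450s of other families gave 8 genes with signal above the floor, 4 higher, 3 lower and 1 equal, and 0 past 2-fold.

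Markers of other cell types differed between the same libraries. All 6 smooth muscle markers were higher in the SOX2 KO library, 4 of them at least 2-fold, and their summed signal was 6.31 with SOX2 and 8.30 in the SOX2 KO library on the log2 scale. Of 11 fibroblast markers 8 passed the floor and 5 of these were higher, with summed signals of 6.87 and 7.49, while Pdgfra, Lum and Twist1 stayed under the floor. The fibroblast marker Dcn read 2.83 and 5.90, at least 4.16-fold higher. Of 8 leukocyte markers 6 lay at or below the receptor level on both arrays, Ptprc among them, and summed signals were 7.67 and 7.91, but the myeloid marker Lyz2 read 2.80 and 4.54, at least 1.62-fold higher. The 5 endothelial markers summed to 5.74 and 5.62, and 8 gastric columnar markers to 6.40 and 6.73, among which Pgc read 3.39 and 4.53, at least 1.61-fold higher. The part of these cells in the differences of the xenobiotic enzymes was not tested. In bulk RNA, fewer cells of a type and less RNA per cell cannot be told apart.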

How the data were processed

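RNA of dissociated forestomach organoids was isolated on RNeasy columns and hybridized to Mouse Gene 2.0 ST arrays, with 1 library in each of 2 groups taken from the submitters' genotype labels. The authors used Transcriptome Analysis Console (its version and how probes were summarized: not given in the sources used here) for normalization, and log2 signals rounded to 2 decimals were deposited per probe set. Probe set positions are on mm10, per the file headers. Columns of the authors' own comparison, a signed fold change (WT control over SOX2 KO) and p-values of which 0 lay below 1, were left out. A second deposited table, of the whole series, had identical log2 signals (0 differed).

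Members were selected by symbol among the 29971 of 34472 probe sets with 1 symbol, and each member had 1 probe set. No test across samples was possible. Named genes were the members past 2-fold, the AHR genes and, by family, those with the highest signal or the largest difference above the floor. The probe sets shared by Gsta1 and Gm3776, the members under the floor that are named, and some pathway genes were picked with their values in view. The members and lists were chosen with earlier results of these data known. Of the listed genes Sts was not analysed here, nor were Adh1, Ugdh and Ugt1a6a on their own, which stand only in several-symbol probe sets. Python 3.11.15, pandas 2.3.3, NumPy 2.4.6 and statsmodels 0.14.6 were used, and counting was tested on simulated data. The alternatives were 3 scalings (centring on the median, quantile, loess with span 0.3), the mean of probe sets, other floors, thresholds of 1.5-fold and 3-fold, the mean over members and added several-symbol probe sets. The number of arrays limits the precision.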

Additional observations from a re-analysis of the deposited data

How the results depend on the processing

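No paired analysis was possible because the groups held 1 library apiece, so no library could be left out either. A difference counted as moved past the receptor SD of 0.26, a median past the standard error that this SD gives for its number of genes, and a count past 1.5 times. Of 220 values for single members 0 moved, and the largest shift was 0.15. The series value table is identical and tests nothing. The same holds for the mean of probe sets, since each member has 1 probe set. Centring shifts every difference by the same 0.01. Only the quantile and loess values among the 220 could thus move. The median of all genes above the floor was 0.01, -0.04 and -0.01 under centring, quantile and loess scaling. At 1.5-fold, members were 4 higher and 5 lower, list genes 5 and 6, and all genes 1031 and 708. At 3-fold, 0 list genes were lower, and all genes were 80 higher and 28 lower. After centring, list genes were 2 higher and 1 lower, since Arnt and Nfe2l2 lie on the threshold. The member median was -0.15 with the floor on both arrays and -0.16 with the floor at the receptor level on 1 or on both arrays, and the cause was not tested. The settings with both arrays above the receptor level and with every several-symbol probe set that holds a member were chosen after the data were seen. The former left 167 genes at least 2-fold higher, as fewer genes remain, and turned the Cyp4 median from 0.11 to -0.44. The latter gave 2 members at least 2-fold lower. Without a floor the medians of Gstt and Ugt2 turned to -0.02 and -0.12, and that of the SULTs went from -0.6 to 0.0. Signals near 3.84 cannot show a fall.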
